A study of Rattus norvegicus with 16 samples.

Results

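Fibroblasts and related mesenchymal cells of the gut wall lay down the matrix on which the epithelium rests. Fibronectin (Fn1) and periostin (Postn) are glycoproteins of that matrix that bind cell-surface integrins, Sparc is a secreted glycoprotein that binds collagen, and decorin (Dcn) and lumican (Lum) are small leucine-rich proteoglycans that bind collagen fibrils. The cells that make them carry the receptors for platelet-derived growth factor (Pdgfra, Pdgfrb), the surface glycoprotein Thy1 and, when activated, the membrane protease Fap, and they build their intermediate filaments from vimentin (Vim). These 10 genes were followed through the normal distal colon of 16 rats. They were chosen by name, through the RefSeq transcript to which an array probe is assigned, and account for 10 of the 15159 gene symbols and 11 of the 30367 non-control probes on the array, Fn1 having 2 probes and each other gene 1.

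The rats were males of the (ACIxF344)F1 cross, all sampled at 97 days of age, and each array holds the RNA of 1 rat. Of the 4 groups of 4 rats, 2 were wildtype and 2 carried the Pirc allele, a nonsense allele of Apc, in the heterozygous state (Pirc/+), a genotype in which colonic tumors arise. Within each genotype 1 group was untreated and the other had dextran sodium sulfate (DSS), a polymer that injures the colonic epithelium and inflames the colon, at 4% in the drinking water from day 40 to day 47 and again from day 54 to day 61. The tissue was labelled as normal distal colon, and the methods of the study describe, for untreated Pirc rats, the collection of normal epithelium by scraping the lumen. Markers of the colonic epithelium were well above background in every rat, 10 of 10 genes on all 16 arrays.

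Unless a sum is named, every value below is a level on the log2 scale, the log2 of a probe's signal over the 75th percentile of its own array, or a difference between such levels. A level says nothing about how 1 gene compares with another, since each probe has its own response. By the scanner's own flags, 71.1% to 80.3% of spots stood well above background, depending on the array, and none was saturated. Differences were tested with limma over all 30367 probes, and a probe was called where the Benjamini-Hochberg adjusted p was at most 0.05 and the change at least 2-fold. Arrays lay 8 to a slide on 2 slides, each slide with 2 rats of every group. Each group occupied 1 column of the slides, so that array column and group cannot be told apart.

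After DSS all 10 genes rose when the effect was averaged over the genotypes, against 5.99% of all probes called in either direction and 5% called higher. The rises ran from 1.03 for Postn to 3.06 for Dcn, with a median of 2.02, while the median over all probes was 0.06. In Pirc rats 9 of the 10 rose (all but Postn), where 7.46% of all probes were called and 5.51% called higher. In wildtype rats 6 rose (Fn1, Sparc, Pdgfra, Pdgfrb, Dcn and Vim), where 2.77% of all probes were called and 2.37% called higher, and the other 4 were higher without passing the test. In tissue of mixed composition, more cells of a type and more RNA per cell cannot be told apart.

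**Figure D1:**
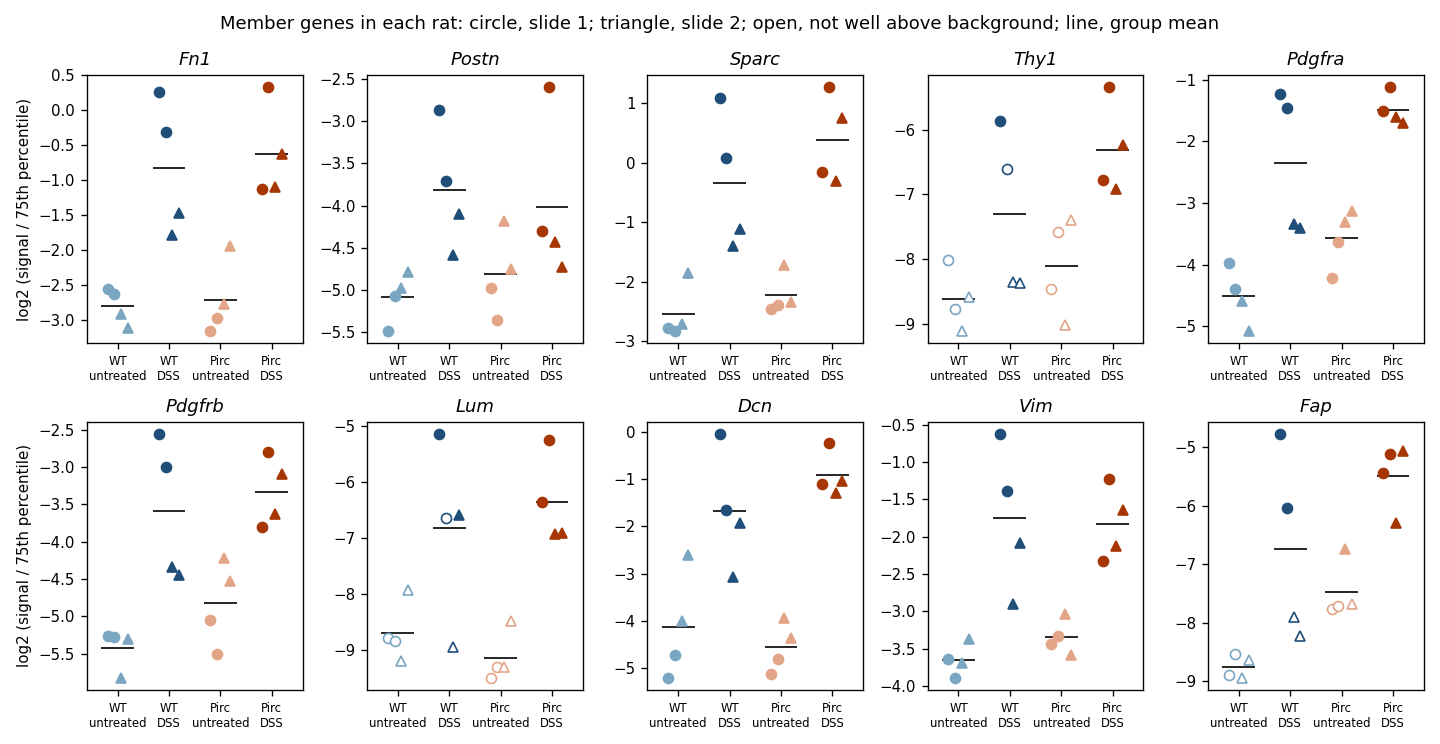
Level of each of the 10 genes (log2 of signal over the array's 75th percentile, main probe) in each rat, by group, with group means as lines; circles are rats of slide 1, triangles rats of slide 2, and open symbols arrays on which the probe was not well above background. The Pirc rats given DSS lie above all untreated Pirc rats in 9 panels, whereas the wildtype rats given DSS spread widely, with those of slide 1 at the top of their group in 9 panels.

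Upstream sequence was available for 6 of the 10 genes (RefSeq, GRCr8), and 4 of these stretches are shown because genes that rose together differed in the common promoter motifs they held. Each run gives the 250 bases before the annotated start, 5′ to 3′ on the gene's own strand, with motif matches in capitals. The motifs searched on both strands were TATAAA, as in a TATA box, and CCAAT (on the other strand ATTGG), as in a CCAAT box, as well as TGANTCA with any base at N, as bound by AP-1, and GGGCGG (on the other strand CCGCCC), as bound by Sp1. No matches of different motifs overlapped in these 6 stretches.
Postn, chr2:140677811-140678060, + strand: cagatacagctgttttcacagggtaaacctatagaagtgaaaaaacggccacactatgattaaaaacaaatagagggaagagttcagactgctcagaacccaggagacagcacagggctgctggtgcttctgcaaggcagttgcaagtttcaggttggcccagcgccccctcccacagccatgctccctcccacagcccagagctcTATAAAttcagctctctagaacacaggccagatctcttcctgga
Lum, chr7:34245456-34245705, + strand: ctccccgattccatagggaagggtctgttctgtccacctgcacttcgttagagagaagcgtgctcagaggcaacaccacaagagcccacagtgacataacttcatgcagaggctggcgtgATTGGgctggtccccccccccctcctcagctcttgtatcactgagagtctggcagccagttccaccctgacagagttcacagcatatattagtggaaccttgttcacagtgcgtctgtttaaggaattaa
Pdgfra, chr14:33408517-33408766, - strand: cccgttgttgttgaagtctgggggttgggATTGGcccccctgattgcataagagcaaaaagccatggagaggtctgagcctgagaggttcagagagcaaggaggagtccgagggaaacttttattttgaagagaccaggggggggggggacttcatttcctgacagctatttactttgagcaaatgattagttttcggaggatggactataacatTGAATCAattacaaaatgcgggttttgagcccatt
Vim, chr17:81577011-81577260, + strand: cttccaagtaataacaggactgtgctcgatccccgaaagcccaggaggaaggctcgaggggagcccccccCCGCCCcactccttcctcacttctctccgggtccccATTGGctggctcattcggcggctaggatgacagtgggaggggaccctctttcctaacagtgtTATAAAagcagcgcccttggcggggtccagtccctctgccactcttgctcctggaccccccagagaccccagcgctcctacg
The TATAAA match of Postn began 44 bases before the start and that of Vim 82 bases before it. Over all 33469 promoters of the same length, TATAAA occurred in 12.93%, CCAAT in 34.02%, TGANTCA in 6.34% and GGGCGG in 30.47%. Among the 6 genes, TATAAA occurred in 2 (Postn and Vim), CCAAT in 3 (Lum, Pdgfra and Vim), TGANTCA in 1 (Pdgfra) and GGGCGG in 1 (Vim), while the stretches of Sparc and Fap held none of the 4. No single motif was present in all 6. A match describes letters only.

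Dcn, whose proteoglycan binds collagen and growth factors, showed the largest rise of the 10. In untreated Pirc rats its level was -5.12, -4.81, -3.94 and -4.37, and in Pirc rats given DSS it was -1.10, -0.22, -1.30 and -1.04. Wildtype rats had levels of -5.21, -4.73, -4.00 and -2.60 untreated, and of -0.04, -1.64, -3.06 and -1.93 after DSS. The groups stood well apart in Pirc rats, by 2.64 between the highest untreated and the lowest treated rat, but overlapped in wildtype rats, where untreated rat 25 (-2.60) lay above treated rat 22 (-3.06). The rise was 3.64 in Pirc rats (SE 0.59, 12.5-fold, adjusted p = 0.00102, limma) and 2.47 in wildtype rats (SE 0.59, 5.53-fold, adjusted p = 0.0327). Over both genotypes it was 3.06 (SE 0.42, adjusted p = 0.000184).

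Lum lies next to Dcn on chromosome 7 in the GRCr8 annotation, followed by the related proteoglycan genes Kera and Epyc with no other gene between them. Its probe was dim, well above background on 6 of the 16 arrays, all from rats given DSS. In Pirc rats the level was -9.50, -9.31, -9.30 and -8.49 untreated and -6.37, -5.25, -6.93 and -6.91 after DSS. In wildtype rats it was -8.79, -8.84, -9.20 and -7.93 untreated and -5.14, -6.65, -8.94 and -6.59 after DSS, so that rat 22 remained among the untreated rats. Since no untreated array measured Lum well above background, the change in Pirc rats is given as at least 1.72-fold (fitted difference 2.79, adjusted p = 0.00729, limma). In wildtype rats the same reckoning gave 1.06-fold (fitted difference 1.86, adjusted p = 0.118, limma). There only 2 of 4 treated arrays were well above background, so that fold is not a strict bound. With all dim values raised to a common floor the difference over both genotypes was 0.26 (adjusted p = 0.349), and the call was lost. Kera, well above background on 1 array, and Epyc, on 4, differed by -0.08 (SE 0.28) and -0.02 (SE 0.31) over both genotypes and were not called.

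Of the glycoproteins, Sparc rose from -2.45, -2.39, -1.71 and -2.33 in untreated Pirc rats to -0.15, 1.28, -0.31 and 0.76 after DSS. Wildtype levels were -2.77, -2.83, -2.70 and -1.85 untreated and 1.09, 0.08, -1.40 and -1.11 after DSS. The groups did not overlap in either genotype. The rise was 2.61 in Pirc rats (SE 0.49, 6.12-fold, adjusted p = 0.00242, limma) and 2.20 in wildtype rats (SE 0.49, 4.59-fold, adjusted p = 0.0218).

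Fn1 was read by 2 probes of the same transcript, both well above background on all 16 arrays, and they disagreed. By the brighter probe the level was -3.16, -2.98, -2.77 and -1.94 in untreated Pirc rats and -1.13, 0.33, -1.09 and -0.62 after DSS, and in wildtype rats -2.55, -2.64, -2.91 and -3.12 untreated and 0.27, -0.32, -1.79 and -1.46 after DSS. The treated and untreated rats did not overlap in either genotype. Its rise was 2.08 in Pirc rats (SE 0.43, adjusted p = 0.00509, limma) and 1.98 in wildtype rats (SE 0.43, adjusted p = 0.0210). By the other probe, carried on 1 spot, the level lay between -4.67 and -4.07 in untreated and between -4.73 and -3.98 in treated Pirc rats, and between -4.56 and -3.96 in untreated and -3.76 and -3.32 in treated wildtype rats. That probe differed by 0.07 in Pirc rats (SE 0.20, adjusted p = 0.896, limma) and 0.72 in wildtype rats (SE 0.20, adjusted p = 0.0597), and was not called. Between treated groups it was lower in Pirc than in wildtype rats by a difference of -0.70 (SE 0.20, adjusted p = 0.0251), short of 2-fold. The difference between the probes widened after DSS by 1.64 over both genotypes (SE 0.29, adjusted p = 0.00109, limma). The transcript regions that the probes cover were not used here, and a statement on Fn1 holds for the brighter probe only.

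Postn showed the smallest change. Its level was -4.97, -5.36, -4.18 and -4.75 in untreated Pirc rats and -4.30, -2.59, -4.43 and -4.72 after DSS, so that 1 treated rat stood high and the other 3 lay within the untreated range. In wildtype rats it was -5.49, -5.08, -4.98 and -4.78 untreated and -2.86, -3.71, -4.59 and -4.09 after DSS, without overlap. The difference was 0.80 in Pirc rats (SE 0.44, adjusted p = 0.266, limma) and 1.27 in wildtype rats (SE 0.44, adjusted p = 0.136), and neither was called. Over both genotypes Postn rose by 1.03 (SE 0.31, adjusted p = 0.0311), just past 2-fold, and that call was lost under 10 of 26 alternatives, among them quantile normalization (0.82, adjusted p = 0.0652) and the fit without treated Pirc rat 16 (0.80, adjusted p = 0.0347, below 2-fold).

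Both receptors for platelet-derived growth factor rose. Pdgfra, the receptor that marks most intestinal fibroblasts, was at -4.21, -3.62, -3.31 and -3.13 in untreated Pirc rats and at -1.51, -1.12, -1.61 and -1.71 after DSS. In wildtype rats it was at -3.97, -4.39, -4.59 and -5.08 untreated and at -1.23, -1.46, -3.34 and -3.41 after DSS. The treated wildtype rats thus fell into a high pair (rats 14 and 18, both on slide 1) and a low pair (rats 22 and 26, both on slide 2), all above the untreated rats. The rise was 2.08 in Pirc rats (SE 0.45, 4.24-fold, adjusted p = 0.00637, limma) and 2.15 in wildtype rats (SE 0.45, 4.45-fold, adjusted p = 0.0164). Pdgfrb, the receptor of pericytes and of many fibroblasts, ranged from -5.50 to -4.22 in untreated and from -3.80 to -2.80 in treated Pirc rats, and from -5.83 to -5.26 in untreated and from -4.45 to -2.56 in treated wildtype rats. It rose by 1.49 in Pirc rats (SE 0.40, adjusted p = 0.0231, limma) and by 1.83 in wildtype rats (SE 0.40, adjusted p = 0.0216), without overlap in either genotype.

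None of the ligands of these receptors was called higher. None of the 4 genes (Pdgfa, Pdgfb, Pdgfc and Pdgfd) was called by limma over both genotypes, with 2 of 4 at an unadjusted p under 0.05 (Pdgfa and Pdgfc) and 0 called by the fit without moderation. Of all probes, 28% had an unadjusted p under 0.05 in that comparison. In Pirc rats Pdgfa fell by 1.26 after DSS (SE 0.20, adjusted p = 0.000931, limma), against a difference of 0.20 in wildtype rats (SE 0.20, adjusted p = 0.723). Among treated rats Pdgfa was 3.44-fold lower in Pirc than in wildtype rats (adjusted p = 0.000289, limma), and the difference between the DSS effects, -1.46 (SE 0.29), did not pass the test (adjusted p = 0.108). Pdgfc changed by -1.33 in Pirc rats (SE 0.42, adjusted p = 0.0460, limma), at least 1.3-fold lower because no treated Pirc array measured it well above background, and that call was lost in 6 of 11 other settings and in 13 of 16 fits that left out 1 rat. It was -0.06 with the common floor (adjusted p = 0.625) and had an adjusted p of 0.0543 with slide as a block. Over both genotypes Pdgfc was called lower with quantile normalization (-1.0, adjusted p = 0.00741). Pdgfb differed by 0.07 (SE 0.16) over both genotypes, and Pdgfd was well above background on no array.

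Thy1 and Fap were dim. Thy1 was well above background on 5 arrays, those of all 4 treated Pirc rats and of treated wildtype rat 14. Its level was -8.46, -7.59, -9.02 and -7.39 in untreated and -6.78, -5.34, -6.92 and -6.24 in treated Pirc rats, at least 1.78-fold higher after DSS (fitted difference 1.80, SE 0.55, adjusted p = 0.0422, limma). In wildtype rats it ranged from -9.12 to -8.01 untreated and from -8.37 to -5.87 after DSS, with overlap (fitted difference 1.32, SE 0.55, adjusted p = 0.233). The Thy1 call in Pirc rats was lost under 14 of 27 alternatives, among them quantile normalization (1.39, adjusted p = 0.0549).

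Fap was well above background on 7 arrays, 1 of them untreated. It was at -7.78, -7.71, -6.74 and -7.68 in untreated Pirc rats and at -5.45, -5.12, -6.30 and -5.07 after DSS, a rise of 1.99 (SE 0.58, adjusted p = 0.0342, limma), with 1 of 4 untreated and 4 of 4 treated arrays well above background. That call was lost under 9 of 27 alternatives. Untreated wildtype rats lay at -8.90, -8.54, -8.95 and -8.65 and treated ones at -4.77, -6.05, -7.90 and -8.23 (fitted difference 2.02, SE 0.58, adjusted p = 0.0722, limma). The fold reckoned against the lowest measurable levels was 1.13. It is not a strict bound, since only 2 of 4 treated arrays were well above background. With the common floor Fap differed by 0.60 over both genotypes (adjusted p = 0.0494) and Thy1 by 0.17 (adjusted p = 0.345), and neither was called.

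Vim, the filament protein of mesenchymal cells and of leukocytes, was well above background on all arrays. Its level was -3.43, -3.33, -3.04 and -3.58 in untreated and -2.32, -1.23, -2.13 and -1.64 in treated Pirc rats. The wildtype rats had -3.63, -3.89, -3.69 and -3.37 untreated and -0.62, -1.39, -2.90 and -2.08 after DSS. The groups did not overlap, and Vim rose by 1.52 in Pirc rats (SE 0.37, adjusted p = 0.0139, limma) and by 1.89 in wildtype rats (SE 0.37, adjusted p = 0.0122).

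**Figure D2:**
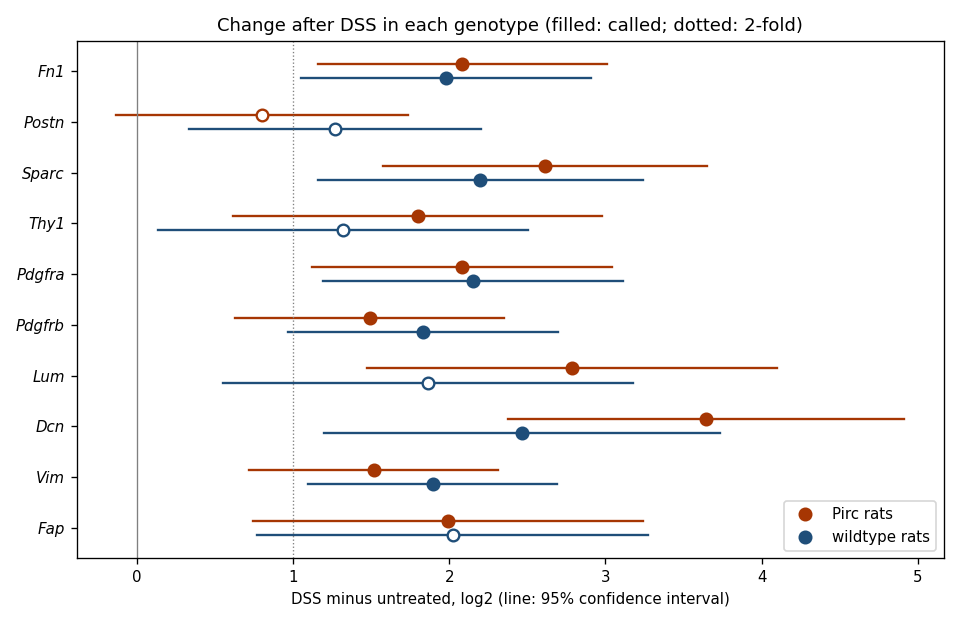
Difference between treated and untreated rats (log2, x axis) for each gene in Pirc and wildtype rats, with 95% confidence intervals from limma; filled points passed the adjusted p and the 2-fold threshold, which the dotted line marks. All 20 estimates lie above 0, with 9 filled points for Pirc rats and 6 for wildtype rats, and the intervals of the genotypes overlap for every gene.

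By its main probe, none of the 10 genes was called between untreated Pirc and untreated wildtype rats by limma (0% of all probes were called; 1 of 10, Fap, at an unadjusted p under 0.05 and 0 by the fit without moderation), with a median difference of 0.31. Fap differed by 1.28 (SE 0.58, adjusted p = 0.476), and every untreated Pirc rat lay above every untreated wildtype rat, as did 4.69% of all probes. Fap was well above background on 0 of 4 untreated wildtype and 1 of 4 untreated Pirc arrays. The fold reckoned for this pair against the lowest measurable levels, 0.68, is not a strict bound and does not fix a direction. Among treated rats 0 of 10 were called (5.47% of all probes; 0 of 10 at an unadjusted p under 0.05, and 0 without moderation), with a median difference of 0.60. Without treated wildtype rat 14, Fap was called there (1.90, adjusted p = 0.0180, limma). The difference between the DSS effects was called for 0 of 10 (0.0428% of all probes; 0 at an unadjusted p under 0.05, and 0 without moderation) and ran from -0.47 for Postn (95% interval -1.79 to 0.86) to 1.18 for Dcn (-0.62 to 2.97). For each of the 10 genes this interval reached past 2-fold in 1 direction or both. The share of all probes at an unadjusted p under 0.05 was 10.2% between untreated genotypes and 31.3% between treated ones. For the difference between the DSS effects it was 10.6%.

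In the order of group means, an untreated group was lowest and a treated group highest for all 10 genes. Wildtype was the lower of the untreated groups for 8 genes (all but Lum and Dcn), and Pirc the higher of the treated groups for 8 (all but Postn and Vim). By the main probes none of these differences within a treatment passed the test. Fap in untreated rats did not overlap between the genotypes, in values mostly not well above background. In Pirc rats the treated rats lay above all untreated ones for 9 genes (8.88% of all probes), in wildtype rats for 7 (8% of all probes), and in both genotypes for 6 (3.42% of all probes). Every treated Pirc rat lay above every treated wildtype rat for 0 of the 10, against 9.62% of all probes.

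**Figure D3:**
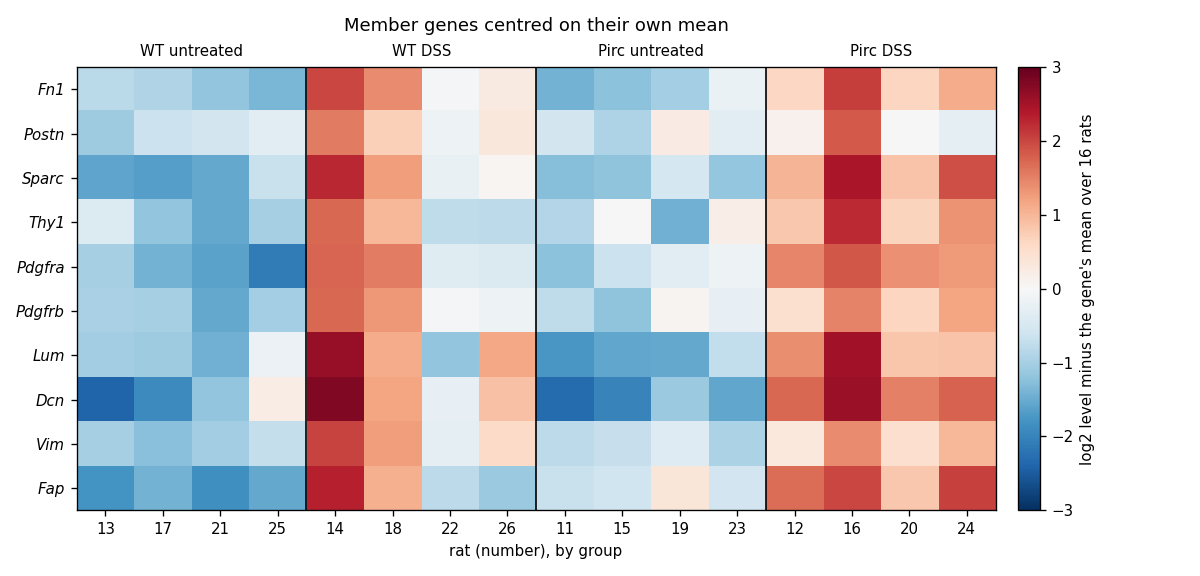
Level of each gene minus its own mean over the 16 rats (log2, colour), with rats in columns by group. Rats 14 and 16 are the darkest red columns, rats 22 and 26 are the palest treated columns, and untreated columns are mostly blue.

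The treated rats with the highest levels had them for nearly the whole set. Averaged over the 10 genes, the centred level was 2.08 in wildtype rat 14 and 1.18 in wildtype rat 18, but 0.08 in rat 26 and -0.41 in rat 22. In Pirc rats given DSS it was 0.96, 2.05, 0.79 and 1.22 (rats 12, 16, 20 and 24), and untreated rats lay between -1.34 and -0.57. Rat 14 was the highest treated wildtype rat for 10 of 10 genes, and rat 16 the highest treated Pirc rat for 9. The array of rat 16 had the lowest 75th percentile of the 16 (875, against 1829, 1469 and 1691 in treated Pirc rats 12, 20 and 24). Its highest correlation with another array was the lowest too (0.985). Every level is relative to the 75th percentile of its own array, and the part of this scaling in the levels of rat 16 was not tested. The SD among rats was larger after DSS than before it for all 10 genes in wildtype rats (median SD 1.16 against 0.38), whereas in Pirc rats this held for 6 (median SD 0.63 against 0.49). The SD between spots of 1 array, as a median over the arrays, was smaller. The SD among rats, pooled over the groups, was 2.40 (Thy1) to 16.3 (Sparc) times as large. On single arrays the spots could spread more than the rats, as for Thy1, Fap, Lum and Pdgfrb. The spot SD of Thy1 was 1.37 in rat 11, against 0.85 among rats, and that of Fap 1.18 in rat 22, against 0.90.

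Slide moved with this spread. Within slide 1 the change after DSS, averaged over the genotypes, ran from 1.86 (Postn) to 4.22 (Dcn), and within slide 2 from 0.21 (Postn) to 1.89 (Dcn). Each of the 10 genes had the larger value on slide 1, and none of these averages was below 0. Within Pirc rats of slide 2 the difference was positive for 9 of the 10, with Postn at -0.11. Of the 1519 probes called higher over both genotypes, 65.5% had the larger value on slide 1. The median difference, slide 2 minus slide 1, was -1.38 for the 10 genes and -0.34 for those 1519 probes. In a fit with slide and its interaction with DSS, limma called 0 of the 10 and 0% of all probes, with 8 of the 10 genes and 1556 of all probes at an unadjusted p under 0.05. The slides hold different rats, so that slide and rat cannot be told apart for these 4 treated wildtype rats. With slide as a block the counts of called genes were 10, 9 and 6, as without it.

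**Figure D4:**
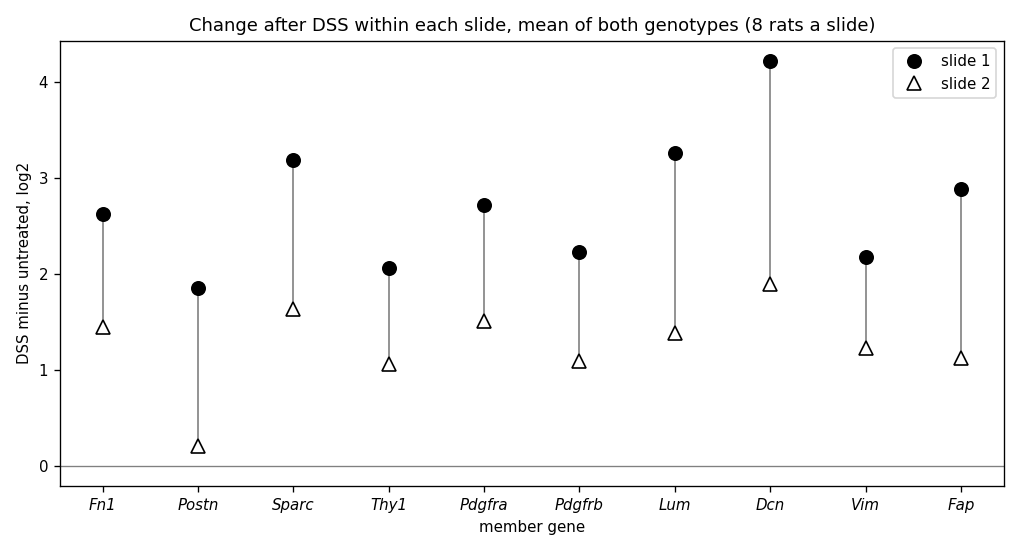
Change after DSS (log2, mean of both genotypes) of each gene within slide 1 (filled circles) and within slide 2 (open triangles), from 8 rats a slide with no error bars. Every circle lies above its triangle, and every triangle above 0, the lowest being Postn on slide 2 at 0.21.

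The wildtype result leaned on few rats. Leaving out treated rat 14 or treated rat 18 left 1 of the 10 genes called in wildtype rats, leaving out untreated rat 17 or 21 left 2, and a fit of the wildtype arrays alone called 0, with adjusted p from 0.0654 (Fn1) to 0.124 (Dcn) for the 6 genes. In Pirc rats 6 to 9 genes were called whichever rat was left out, and over both genotypes 9 to 10. Fn1 by its brighter probe, Sparc, Pdgfra, Dcn and Vim were called under every alternative run for Pirc rats and for both genotypes.

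Of all other genes, 5 followed the average of the 10 most closely over the 16 rats, by the root mean square difference of centred levels (10355 genes well above background, median 1.2). They were Col1a2, a chain of type I collagen (0.21), C1r, a complement protease (0.25), Igsf7 l1 (0.26), Loxl2, a lysyl oxidase that crosslinks collagen (0.27), and Igfbp6, a binding protein of insulin-like growth factors (0.28). Among the 10 themselves the same measure ran from 0.30 (Fn1) to 0.77 (Dcn). The 16 points share their arrays and scaling.

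The rest of the matrix moved less uniformly. Of 9 further small leucine-rich proteoglycans, 2 rose over both genotypes and 1 fell (5% of all probes called higher and 0.988% lower). Biglycan (Bgn) rose by 2.18 (SE 0.32, adjusted p = 0.000275, limma), Ogn rose by 1.35 (SE 0.40, adjusted p = 0.0283), and Chad fell by 1.15 (SE 0.16, adjusted p = 0.000185). The list median was 0.23, against 2.02 for the 10 genes. The Ogn call was lost with normexp background correction (0.53, short of 2-fold), without rats 25 and 26 together (adjusted p = 0.0542) and in 8 of 16 fits that left out 1 rat (rat 11, 14, 15, 16, 18, 19, 21 or 26, adjusted p from 0.0514 to 0.0639). With normexp background correction the Chad call was lost too (-0.98, short of 2-fold).

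Among 20 further matrix glycoproteins 9 rose and 0 fell. The hyaluronan-binding proteoglycan versican (Vcan) rose by 4.04 over both genotypes (SE 0.38, adjusted p = 1.76e-05, limma), the largest rise of all the matrix genes listed, and tenascin C (Tnc) by 3.34 (SE 0.45, adjusted p = 0.000160). Both were dim before treatment, and in wildtype rats, where no untreated array measured them well above background, Vcan was at least 5.31-fold and Tnc at least 4.36-fold higher after DSS. The Tnc call was lost with normexp background correction (0.96, short of 2-fold). The connective tissue growth factor gene Ccn2 (2.98) and Ecm1 (2.57) were also called. Smoc1 (-0.90, well above background on 1 array), Matn4 (-0.84), Ccn3 (-0.57) and Smoc2 (-0.18) had the opposite sign and were not called.

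Of 14 genes of elastic fibres and their microfibrils, 8 rose and 0 fell, and all 14 had a positive difference (median 1.11). Elastin (Eln) rose by 2.99 (SE 0.28, adjusted p = 1.76e-05, limma), with 3.44 in Pirc and 2.55 in wildtype rats. Loxl1, which crosslinks elastin, rose by 2.40 (SE 0.35, adjusted p = 0.000305), and was at least 2.94-fold higher in wildtype rats. The Loxl1 call was lost with normexp background correction (0.47) and with the common floor (0.996), both short of 2-fold.

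Of 17 fibroblast markers outside the set, 5 rose and 1 fell, with a median of 0.76. A positive difference was found for 16 of the 17, as for 17647 of all 30367 probes, and 12 had an unadjusted p under 0.05, against 28% of all probes. Fgf10, Twist1 and Twist2, which are among these 12, were well above background on 1 array each. Podoplanin (Pdpn) rose by 3.1 (SE 0.30, adjusted p = 1.99e-05, limma) and the transcription factor Tcf21 by 2.60 (SE 0.47, adjusted p = 0.00153). Among treated rats Pdpn was called higher in Pirc than in wildtype rats (1.37, adjusted p = 0.0365, limma). It was the only 1 of the 17 called there, where 5.47% of all probes were called. The part of other cell types in the Pdpn level was not tested. Tcf21 was well above background on 3 of 8 untreated and 8 of 8 treated arrays. Its call was lost with normexp background correction (0.56, short of 2-fold). Dpp4, a surface peptidase of some fibroblasts that absorptive epithelium carries too, fell by 1.78 (SE 0.25, adjusted p = 0.000185). Cd34 (0.27), Il33 (0.29) and Has1 (0.12) were not called.

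**Figure D5:**
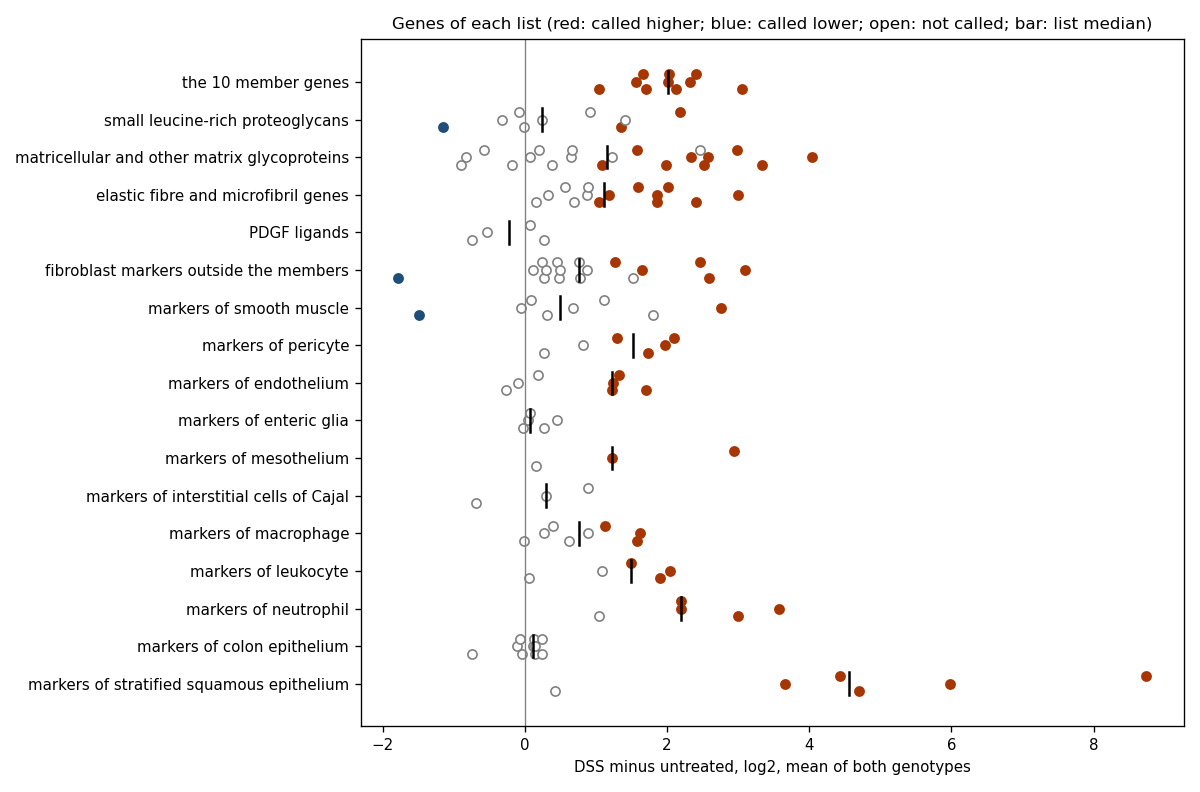
Change after DSS (log2, mean of both genotypes) of every measured gene of each list, 1 point a gene, with list medians as bars; red points were called higher, blue points lower, open points not called. The 10 genes at the top are all red and lie between 1.03 and 3.06, while the PDGF ligand, enteric glia, interstitial cell and colon epithelium lists hold open points only, the remaining lists mix open and filled points, and stratified squamous markers reach 8.74.

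Markers of other cell types moved as well, and their part in the result was not tested. Called higher over both genotypes were 4 of 6 pericyte genes (median 1.51), 4 of 7 endothelial genes (1.22), 2 of 3 mesothelial genes (1.23), 3 of 8 macrophage genes (0.76), 3 of 5 leukocyte genes (1.49), 4 of 5 neutrophil genes (2.20) and 5 of 6 genes of stratified squamous epithelium (4.56). The mesothelial genes called were Msln (2.94) and the keratin gene Krt7 (1.23). The third, Wt1, was not called and was well above background on 1 of 8 untreated and 0 of 8 treated arrays. The mesothelial list and its sums thus rest on few genes. Not called were all 5 enteric glia genes (median 0.07, 0 at an unadjusted p under 0.05 and 0 called without moderation) and all 10 colon epithelium genes (median 0.11, 2 at an unadjusted p under 0.05 and 0 called without moderation). Likewise, of 3 genes of the interstitial cells of Cajal 0 were called (2 at an unadjusted p under 0.05, 0 called without moderation). Over all probes 28% had an unadjusted p under 0.05 in this comparison. Within Pirc rats 2 genes of the glia, colon epithelium and Cajal lists were called lower. They were the chloride exchanger gene Slc26a3 of the colon epithelium (-1.72, adjusted p = 0.00268, limma) and the chloride channel gene Ano1 of the interstitial cells of Cajal (-1.14, adjusted p = 0.0181). Neither list fell as a set in Pirc rats. A positive difference was found there for 6 of 10 colon epithelium genes (median 0.02) and for 2 of 3 Cajal genes (median 0.52). In smooth muscle 1 of 8 rose, Tagln (2.76, adjusted p = 0.0441, limma), which activated fibroblasts express too, and 1 fell, the muscle filament gene Des (-1.49). Des was called lower within Pirc rats too (-1.87, adjusted p = 0.00964, limma). Tagln was not called in Pirc rats (adjusted p = 0.0717) or in wildtype rats (adjusted p = 0.50), and the count of smooth muscle genes called higher ranged from 0 to 3 over the alternatives.

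Given as sums of signal over the 75th percentile in each rat, squamous markers ranged from 0.160 to 0.315 in untreated and from 12.4 to 66.7 in treated Pirc rats, and from 0.166 to 0.231 in untreated and from 0.178 to 33 in treated wildtype rats. The 10 genes did not follow that order within treated wildtype rats: rat 22, with the highest squamous sum (33), had the lowest sum over the 10 genes (1.12), and rat 14, with the highest sum over the 10 genes (5.78), had a squamous sum of 1.91. Leukocyte, endothelial and mesothelial sums did follow the order of the 10 genes in these 4 rats (5.78, 3.16, 1.54 and 1.12 in rats 14, 18, 26 and 22). In the same order of rats the leukocyte sums were 4.84, 3.92, 3.87 and 2.92, the mesothelial sums 4.55, 3.49, 2.16 and 1.58, and the endothelial sums 1.27, 1.26, 1.20 and 0.817. Neutrophil, macrophage, pericyte and smooth muscle sums had other orders in these wildtype rats. In treated Pirc rats the 10 genes summed to 5.81, 3.66, 2.54 and 2.39 (rats 16, 24, 12 and 20). Smooth muscle sums kept that order of rats (6.17, 3.33, 2.99 and 2.77). Leukocyte (5.28, 4.75, 3.89 and 4.77), mesothelial (9.38, 4.50, 4.58 and 8.14) and endothelial sums (1.38, 1.27, 1.13 and 1.27) did not. Squamous, neutrophil, macrophage and pericyte sums did not either. Neutrophil markers summed to between 0.998 and 1.69 in untreated and 9.16 and 37.7 in treated Pirc rats, and to between 0.352 and 0.709 and between 0.915 and 4.40 in wildtype rats. Pericyte markers summed to between 0.177 and 0.221 and between 0.396 and 0.478 in Pirc rats, and to between 0.152 and 0.250 and between 0.302 and 0.384 in wildtype rats. Endothelial markers summed to between 0.695 and 1.06 untreated and 1.13 and 1.38 treated in Pirc rats, and to between 0.745 and 1.16 and between 0.817 and 1.27 in wildtype rats, the latter ranges overlapping. Leukocyte markers summed to between 2.02 and 3.36 untreated and 3.89 and 5.28 treated in Pirc rats, and to between 2.11 and 2.48 and between 2.92 and 4.84 in wildtype rats. Mesothelial markers summed to between 1.54 and 1.97 untreated and 4.50 and 9.38 treated in Pirc rats, and to between 1.44 and 2.06 and between 1.58 and 4.55 in wildtype rats. Treated rats thus lay above untreated ones for leukocyte, neutrophil and pericyte markers in both genotypes. In Pirc rats only, they did so for endothelial, mesothelial and squamous markers. Colon epithelium markers summed to between 458 and 633 untreated and 455 and 666 treated in Pirc rats, and to between 514 and 671 and between 598 and 751 in wildtype rats, overlapping in both. Ivl, Tek and Lmod1 of these lists were well above background on no array.

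Smooth muscle sums stood apart in 2 wildtype rats, untreated rat 25 (9.69, the other untreated wildtype rats 4.19 to 4.27) and treated rat 26 (14.6, the others 3.51 to 3.89). Rat 25 was also the untreated rat with the highest Dcn (-2.60). Without both of these rats the counts of called genes were 10 over both genotypes, 9 in Pirc rats and 7 in wildtype rats.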

How the data were processed

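Total RNA of 16 rats was hybridised to single-colour Agilent arrays. Per the file headers, Agilent Feature Extraction 10.7.3.1 read each scan and subtracted the background from each spot. The processed signal that the authors deposited is thus a linear intensity per spot, with no scaling from array to array. The submitters' processing notes name Partek, with no version, and the values it gave were not used here. Spots with an outlier flag were left out (in 25 probe values all spots were flagged and were kept), control spots were removed, and the log2 of the intensity minus that of the array's 75th percentile was averaged over a probe's spots. Probes were named through their RefSeq accession in a table of the GRCr8 assembly (18006 of 30367 probes matched). The array was designed on an older build, so coordinates are given for RefSeq promoters only. The brightest probe stands for a gene.

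limma 3.58.1 in R 4.3.3 fitted 1 mean per group over all 16 arrays, with no covariate and no filter on dim probes, for 6 comparisons, and p-values were adjusted over all probes by the Benjamini-Hochberg method. The fit was tested on simulated data. Where a probe was well above background on no array of a group, the fold is a bound: the mean of the brighter group against, per array, the higher of the probe's own level and the lowest level well above background. Where arrays of the brighter group were not well above background either, its mean holds such values too, and the fold is not a strict bound. For the common floor, probes at the floor on all arrays were left out. The members and all gene lists were chosen with earlier results of these data known. Genes named from the related lists are the up to 2 largest rises and 2 largest falls among those called over both genotypes and every PDGF ligand. Ccn2, Ecm1, Smoc1, Smoc2, Matn4, Ccn3, Cd34, Il33, Has1, Kera, Epyc and the markers named were chosen after their values were seen. Of 151 genes listed outside the members, 21 had no matched probe and are not analysed here. Each array is 1 rat, so the p-values set a difference against a moderated spread that holds rat, array and slide together. The number of arrays limits the precision.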

Additional observations from a re-analysis of the deposited data

Results flagged for a closer look

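Of the 40 sets of 4 rats examined (10 genes in 4 groups), 4 held a rat whose gap to its nearest neighbour took up more of the group's range than Dixon's 95% critical value for 4 samples. Chance alone puts about 1 set in 20 past that value. All 4 were untreated groups. Pdgfrb was lowest in untreated wildtype rat 21 at -5.83, with the next rat at -5.31 (gap over range 0.914). Fap was highest in untreated Pirc rat 19 at -6.74, with the next at -7.68 (0.910). Sparc was highest in untreated wildtype rat 25 at -1.85, with the next at -2.70 (0.875), and in untreated Pirc rat 19 at -1.71, with the next at -2.33 (0.837). Rat 25 also had a high smooth muscle marker sum. The part of that marker sum in the Sparc value was not tested.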

How the results depend on the processing

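The number of the 10 genes called was 10 over both genotypes, 9 in Pirc rats and 6 in wildtype rats as reported. By contrast, normexp background correction with quantile normalization, which adds an offset and so shrinks differences of dim probes, gave 5 over both genotypes and 5 in Pirc rats, and a fit of the compared groups only gave 0 in wildtype rats. For both genotypes together, Pirc rats and wildtype rats in turn, quantile normalization gave 9, 8 and 6 and the common floor 7, 6 and 6. Leaving out 1 rat at a time gave 9 to 10 over both genotypes, 6 to 9 in Pirc rats, 1 to 8 in wildtype rats, 0 to 1 between treated genotypes, and 0 for the untreated genotypes and for the difference between the DSS effects. Of all probes called, 83.5% over both genotypes, 73.8% in Pirc rats and 85.5% in wildtype rats were higher, and with quantile normalization 69.6%, 57.7% and 67.6%. That setting moved the median of all probes over both genotypes from 0.06 to -0.09 and the median of the 10 genes from 2.02 to 1.89. Over 27 alternatives, including that without the 2-fold minimum, the number of genes called higher over both genotypes ranged from 1 to 3 for the small leucine-rich proteoglycans, 4 to 11 for the matrix glycoproteins, 1 to 11 for the elastic fibre genes, 2 to 7 for the fibroblast markers, 0 to 5 for pericyte, 1 to 4 for endothelium, 2 to 5 for macrophage, 1 to 4 for leukocyte and 2 to 5 for neutrophil markers, and stayed at 2 for mesothelium and 5 for squamous markers. No paired analysis was possible because the rat numbers are not shared between groups.

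Signs turned only in differences that were not called. With quantile normalization these were Pdgfb over both genotypes (-0.27), the other Fn1 probe in Pirc rats (-0.18) and Pdgfra in the difference between the DSS effects (0.0122). With normexp they were the same quantities for Pdgfb (-0.0467), the other Fn1 probe (-0.12) and Pdgfra (0.17), and the difference between the DSS effects for Thy1 (-0.00692) and Fap (0.0534). With the common floor they were Pdgfc (0.0132) and Epyc (0.00981) over both genotypes, Lum between treated genotypes (-0.0269) and in the difference between the DSS effects (-0.0269), and Fap in the latter (0.30). With probes of a gene averaged, Fn1 turned between treated genotypes (-0.25) and in the difference between the DSS effects (-0.27). Without rats 25 and 26, a setting chosen after seeing the data, Epyc over both genotypes (0.0129), Fn1 (-0.0109) and Dcn (0.0848) between untreated genotypes, Fn1 (-0.0152) and Pdgfrb (-0.0368) between treated genotypes, and Fn1 (-0.00427) and Sparc (-0.0745) in the difference between the DSS effects turned.

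Leaving out 1 rat turned others, with these ranges: over both genotypes, Epyc -0.20 to 0.15, Kera -0.23 to 0.13 and Pdgfb -0.00219 to 0.18; the other Fn1 probe in Pirc rats -0.0446 to 0.23; between treated genotypes, Vim -0.46 to 0.30, Postn -0.67 to 0.12, Fn1 -0.12 to 0.56, Pdgfrb -0.0368 to 0.59 and Lum -0.24 to 1.03; between untreated genotypes, Fn1 -0.17 to 0.24 and Dcn -0.78 to 0.0848; and in the difference between the DSS effects, Fn1 -0.22 to 0.47, Fap -0.53 to 0.62 and Pdgfra -0.42 to 0.30. The cause of these changes was not tested. Dim signal limits Thy1, Lum and Fap, and 4 rats a group limit every comparison between genotypes.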
